A study of Hordeum vulgare with 22 samples.

Results

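The genes described here are 3 barley (Hordeum vulgare) genes of the ALOG family, HORVU6Hr1G058340, HORVU6Hr1G088790 and HORVU2Hr1G089190. They were chosen by their gene identifiers after their difference between a many-noded dwarf line and its parent cultivar was known, so that difference is given as a description, without a test. The table of 24318 genes holds 9 genes with the ALOG domain (PF04852), these 3 and 6 more, and all 9 were among the 21132 genes that passed the filter on low counts. Messenger RNA was sequenced from inflorescences of the line mnd1.a, which carries the mnd1.a allele in the background of cultivar Bowman, and of wild-type Bowman, both grown in long days. Each sample also held the inflorescence base and the small leaves beneath it. Samples were staged on the Waddington scale of spike development, from W2.0, when double ridges are visible, through W3.5, when florets form stamens, to W5.0, when floret organs grow on. From the earliest stage to the latest, mnd1.a was sampled with 3, 3 and 4 libraries and Bowman with 3, 4 and 4. A further sample of shoot apices of cultivar Mesa was not analysed here.

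ALOG proteins, named after Arabidopsis LSH1 and rice (Oryza) G1, are small plant-specific DNA-binding proteins that act in shoot and inflorescence meristems and at organ boundaries. In rice, the ALOG gene TAWAWA1 keeps the inflorescence meristem active and delays the change to spikelets, in part through MADS-box genes of the SVP group, and G1 sets the identity of the sterile lemma. In Arabidopsis, LSH1 acts in the light response of seedlings, and LSH3 and LSH4 are expressed at organ boundaries, where CUP-SHAPED COTYLEDON1 activates them. In tomato, the ALOG protein TERMINATING FLOWER holds back the end of meristem activity together with BLADE-ON-PETIOLE proteins. The roles of the barley genes themselves are not given in the table, which names them after Arabidopsis proteins.

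HORVU6Hr1G058340 lies on 6H from 382481516 to 382483339 and is annotated as LIGHT-DEPENDENT SHORT HYPOCOTYLS 3 (LSH3). HORVU6Hr1G088790, on the same chromosome from 567405168 to 567407091, carries the same annotation. HORVU2Hr1G089190 lies on 2H from 637626559 to 637627368 and is annotated as LSH6. The counts of each gene differed from those of every other gene in the table. No source used here says if strand was used in counting, so reads of an overlapping antisense transcript could not be told apart.

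The libraries held 11436651 to 21596190 estimated counts each, and 3 counts corresponded to 0.129 to 0.253 CPM (counts scaled to library size, with TMM factors between libraries), which covers counting error only. MND1 (HORVU7Hr1G113480), the gene affected in mnd1.a, ranged from 4.804 to 6.71 CPM in mnd1.a against 10.5 to 20.97 CPM in Bowman at W2.0. At W3.5 it ranged from 3.48 to 4.55 CPM in mnd1.a against 14.4 to 30.6 CPM in Bowman, and at W5.0 from 2.39 to 6.02 CPM in mnd1.a against 6.15 to 16.0 CPM in Bowman. The MND1 groups did not overlap at any stage, and the edgeR adjusted p was 0.115, 0.00141 and 0.00653 in order of stage. Library codes begin with 1328 for both lines at W2.0 and with 1327 for both at W3.5. At W5.0 they begin with 1328 for mnd1.a and with 1327 for Bowman, so there the prefix and the line cannot be told apart. Between stages the prefix also changes in both lines from W2.0 to W3.5, in mnd1.a from W3.5 to W5.0 and in Bowman from W2.0 to W5.0, and for these steps prefix and stage cannot be told apart. It is the same at both ends for Bowman from W3.5 to W5.0 and for mnd1.a from W2.0 to W5.0. Since no label states that the libraries are from separate plants, each p-value refers to the spread among these libraries only, and that spread may be technical.

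The levels of all 3 ALOG transcripts overlapped between the lines at W2.0. At W3.5 the mean of each was higher in mnd1.a inflorescences than in Bowman, and at W5.0 every mnd1.a library lay above every Bowman library. The W5.0 means in mnd1.a were 4.37, 2.76 and 3.52 times the Bowman means for HORVU6Hr1G058340, HORVU6Hr1G088790 and HORVU2Hr1G089190. Since each sample is a piece of tissue, fewer cells of a type and less RNA per cell cannot be told apart in these values.

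HORVU6Hr1G058340 was at 80.8, 67.5 and 57.8 CPM in the mnd1.a libraries at W2.0, against 67.3, 57.1 and 58.9 CPM in Bowman. The groups overlapped, and the log2 fold change of mnd1.a over Bowman was 0.17 ± 0.42 (SE). At W3.5 the gene was at 62.5, 65.5 and 37.4 CPM in mnd1.a, against 29.1, 25.1, 21.1 and 9.35 CPM in Bowman. Every mnd1.a library was above every Bowman library, Bowman replicate 4 was the lowest, and the log2 fold change was 1.38 ± 0.40 (SE). At W5.0 it was at 23.99, 17.0, 26.9 and 19.9 CPM in mnd1.a, against 9.13, 2.83, 6.87 and 1.27 CPM in Bowman. Again the groups did not overlap. The W5.0 log2 fold change was 2.08 ± 0.42 (SE), and it lay between 1.78 and 2.56 when each library was left out in turn.

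HORVU6Hr1G088790, the other gene annotated as LSH3, was at 10.9, 7.25 and 9.18 CPM in mnd1.a at W2.0 and at 9.01, 10.3 and 10.2 CPM in Bowman. These groups overlapped, with a log2 fold change of -0.11 ± 0.38 (SE). Its W3.5 levels were 4.765, 7.71 and 10.3 CPM in mnd1.a, against 5.75, 7.38, 5.04 and 2.53 CPM in Bowman. Here 1 mnd1.a library lay below 3 of the Bowman libraries, and the log2 fold change of 0.55 ± 0.36 (SE) ranged from 0.26 without mnd1.a replicate 3 to 0.81 without mnd1.a replicate 1. At W5.0 the levels were 5.69, 7.41, 9.61 and 5.42 CPM in mnd1.a, against 3.50, 1.54, 3.94 and 1.21 CPM in Bowman. The groups stood apart at W5.0, with a log2 fold change of 1.44 ± 0.35 (SE) and a range of 1.22 to 1.71 with a library left out.

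HORVU2Hr1G089190, annotated as LSH6, was at 259, 231 and 182 CPM in mnd1.a at W2.0, against 183, 162 and 225 CPM in Bowman. The groups overlapped, and the log2 fold change was 0.24 ± 0.46 (SE). At W3.5 it was at 199.97, 188 and 128 CPM in mnd1.a and at 133, 94.3, 58.4 and 43.9 CPM in Bowman. A single Bowman library, replicate 1, reached the mnd1.a range there, and the log2 fold change of 1.06 ± 0.43 (SE) would be 1.40 without it. At W5.0 the levels were 88.5, 59.5, 98.2 and 61.11 CPM in mnd1.a, against 42.7, 12.7, 23.9 and 7.80 CPM in Bowman. No Bowman library reached the lowest mnd1.a library. The log2 fold change was 1.80 ± 0.42 (SE), from 1.53 to 2.37 with a library left out.

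**Figure D1:**
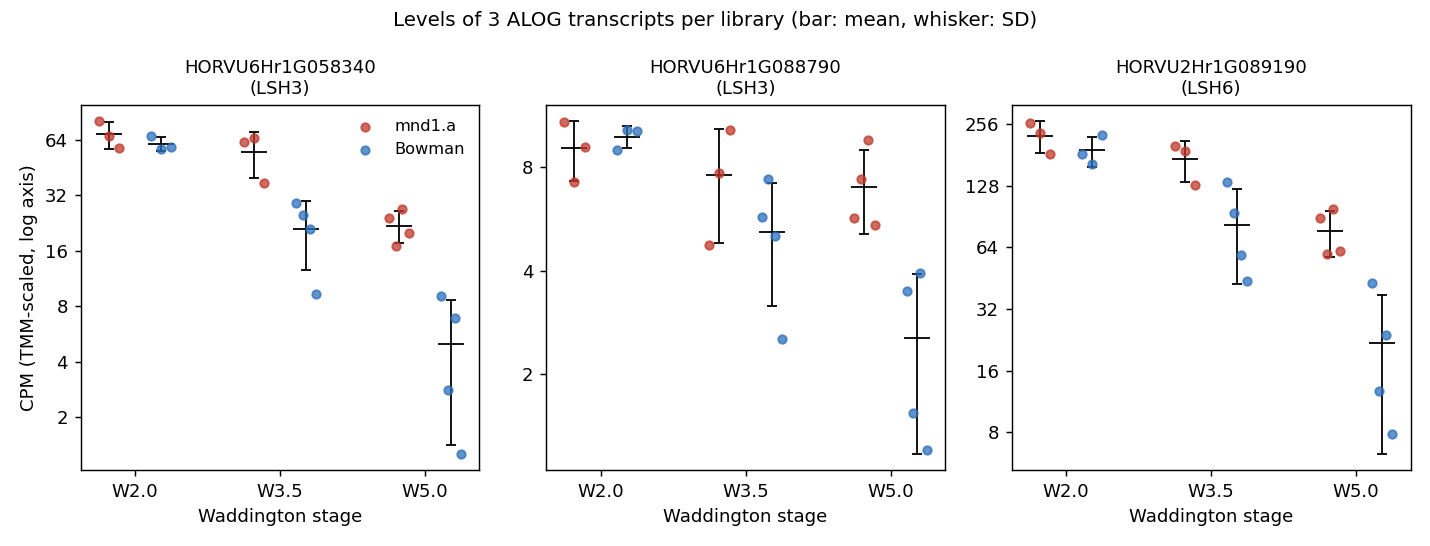
Level of each of the 3 ALOG transcripts in every library, in TMM-scaled CPM on a log axis, by Waddington stage with mnd1.a in red and Bowman in blue. Horizontal bars are group means and whiskers SDs; the lines share the same range at W2.0 and are separate at W5.0, where the mean of HORVU6Hr1G058340 was 21.9 CPM for mnd1.a and 5.02 CPM for Bowman.

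Across all genes tested, every mnd1.a library lay above every Bowman library for 9.50% at the first stage, 5.98% at the second and 17.8% at W5.0. Of the chosen genes, 0 of 3 were separated in this way at first, 1 of 3 at W3.5 (HORVU6Hr1G058340) and 3 of 3 at W5.0. Because the genes were selected on these differences, nothing is read from these shares. In the authors' deposited table the log2 fold changes, in order of stage, are 0.16, 1.41 and 2.35 for HORVU6Hr1G058340, -0.12, 0.58 and 1.53 for HORVU6Hr1G088790, and 0.24, 1.16 and 2.00 for HORVU2Hr1G089190.

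The order of the 6 group means shows how the lines and stages interleave. HORVU6Hr1G058340 averaged 68.7 ± 11.5 CPM (SD, n = 3) in mnd1.a and 61.08 ± 5.44 CPM (SD, n = 3) in Bowman at W2.0, and 55.1 ± 15.4 CPM (SD, n = 3) in mnd1.a at W3.5. These 3 groups overlapped with each other, and every one of their libraries lay above the other 3 groups. Next came mnd1.a at W5.0 with 21.9 ± 4.40 CPM (SD, n = 4) and Bowman at W3.5 with 21.1 ± 8.51 CPM (SD, n = 4), whose libraries also overlapped. Bowman at W5.0, at 5.02 ± 3.62 CPM (SD, n = 4), lay below all other groups. On these means the mnd1.a inflorescence at W5.0 was at the level that Bowman had at W3.5.

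HORVU2Hr1G089190 followed nearly the same order. At W2.0 its means were 224 ± 39.3 CPM (SD, n = 3) in mnd1.a and 190.0 ± 32.0 CPM (SD, n = 3) in Bowman, followed by mnd1.a at W3.5 with 172 ± 38.5 CPM (SD, n = 3). Bowman at W3.5 (82.5 ± 40.04 CPM) and mnd1.a at W5.0 (76.8 ± 19.5 CPM, SD, n = 4 each) overlapped each other, and Bowman at W5.0 was lowest at 21.8 ± 15.5 CPM (SD, n = 4). The stage means of HORVU6Hr1G088790 were 9.10 ± 1.80, 7.60 ± 2.78 and 7.03 ± 1.93 CPM in mnd1.a (SD, n = 3, 3 and 4), against 9.83 ± 0.705, 5.18 ± 2.02 and 2.55 ± 1.37 CPM in Bowman (SD, n = 3, 4 and 4). Ordered by level, all 3 mnd1.a means lay between the Bowman means at W2.0 and W3.5, and each neighbouring pair of groups overlapped.

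The second comparison was between stages within each line. The 3 genes were chosen with their levels in both lines at all stages known, so their changes between stages are also given as a description, without a test. Over the whole span, W5.0 over W2.0, the log2 fold change of each gene was below 0 in both lines and further below 0 in Bowman than in mnd1.a. At an adjusted p under 0.05, 10.4% of all genes tested were called lower over the span in mnd1.a and 27.1% in Bowman. Nothing is read from the chosen genes against these shares.

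HORVU6Hr1G058340 kept 32.0% of its W2.0 mean at W5.0 in mnd1.a and 8.23% in Bowman. Its W5.0 over W2.0 log2 fold change was -1.64 ± 0.40 in mnd1.a and -3.56 ± 0.44 in Bowman (SE). HORVU2Hr1G089190 kept 34.3% in mnd1.a and 11.5% in Bowman. Its span changes were -1.55 ± 0.43 in mnd1.a and -3.11 ± 0.45 in Bowman (SE). HORVU6Hr1G088790 kept 77.3% in mnd1.a and 25.9% in Bowman. Its span change was -0.37 ± 0.36 in mnd1.a, about the size of its SE, against -1.92 ± 0.37 in Bowman (SE). For all 3 genes the mnd1.a libraries compared over the span share a code prefix and the Bowman libraries do not.

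Between W2.0 and W3.5 the log2 fold changes in mnd1.a were -0.32 ± 0.42, -0.26 ± 0.38 and -0.38 ± 0.46 (SE) for HORVU6Hr1G058340, HORVU6Hr1G088790 and HORVU2Hr1G089190, each smaller than its SE. Of all genes, 2.19% were called lower over this step in mnd1.a and 15.2% in Bowman. In Bowman the values were -1.52 ± 0.40 for HORVU6Hr1G058340, -0.92 ± 0.36 for HORVU6Hr1G088790 and -1.20 ± 0.43 for HORVU2Hr1G089190 (SE). Without Bowman W3.5 replicates 2 and 4, the libraries of that group with the highest floral marker sums, HORVU6Hr1G058340 gave -1.29 and HORVU2Hr1G089190 -0.99.

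Between W3.5 and W5.0 the mnd1.a values were -1.33 ± 0.40 for HORVU6Hr1G058340 and -1.16 ± 0.43 for HORVU2Hr1G089190 (SE). HORVU6Hr1G088790 gave -0.11 ± 0.36 in mnd1.a (SE), and its sign turned to 0.18 without mnd1.a W3.5 replicate 3. In Bowman, where both stages share a code prefix, the step gave -2.03 ± 0.42 for HORVU6Hr1G058340, -1.0 ± 0.35 for HORVU6Hr1G088790 and -1.90 ± 0.42 for HORVU2Hr1G089190 (SE). Of all genes, 5.01% were called lower over this step in mnd1.a and 3.70% in Bowman.

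The change of the line difference from W2.0 to W5.0, on the log2 scale, was 1.92 ± 0.59 for HORVU6Hr1G058340, 1.55 ± 0.51 for HORVU6Hr1G088790 and 1.56 ± 0.62 for HORVU2Hr1G089190 (SE). From W2.0 to W3.5 it was 1.21 ± 0.59, 0.67 ± 0.52 and 0.82 ± 0.63 in the same order of genes, and from W3.5 to W5.0 it was 0.71 ± 0.58, 0.89 ± 0.50 and 0.74 ± 0.60 (SE). These values were known when the genes were chosen and carry no test. The changes that end at W5.0 include the stage where code prefix and line cannot be told apart. From W2.0 to W3.5 the prefix changes alike in both lines.

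**Figure D2:**
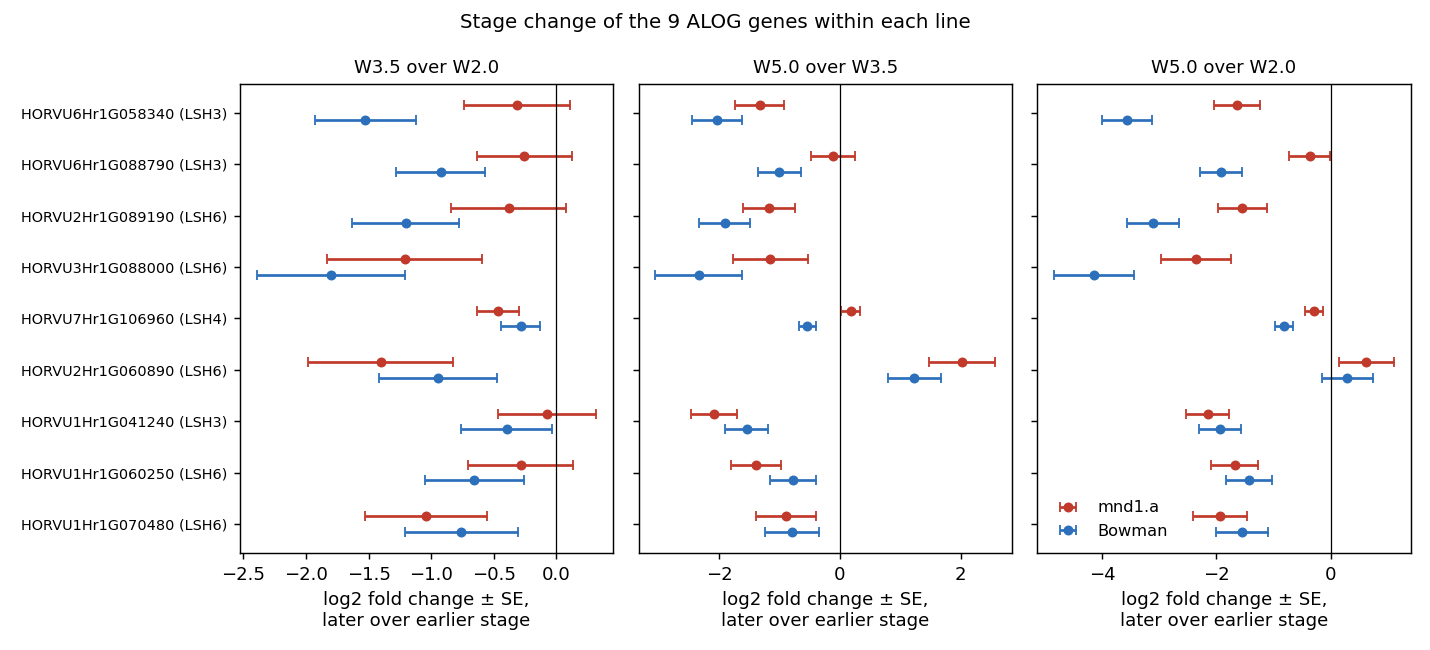
Log2 fold change between stages within each line for the 9 ALOG genes (later over earlier stage, points with SE), mnd1.a in red above Bowman in blue. The Bowman points of the 3 genes at the top lie further below 0 than the mnd1.a points, for example -1.64 in mnd1.a against -3.56 in Bowman for HORVU6Hr1G058340 over the whole span.

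The line difference of the other 6 ALOG genes was tested over all genes. At W5.0, 2 of 6 were higher in mnd1.a and 0 were lower, beside 15.0% of all genes called higher and 15.2% called lower. At W2.0 and W3.5, 0 of 6 were called, beside 0.497% higher and 0.293% lower at W2.0 and 1.77% higher and 2.13% lower at W3.5. At these 2 stages 0 of 6 had an unadjusted edgeR p under 0.05, and DESeq2 and limma-voom also called 0. Their median log2 fold change was 0.24, 0.27 and 0.02 in order of stage, where the median over all genes was -0.01 at each stage.

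HORVU7Hr1G106960, annotated as LSH4, lies on 7H from 621384197 to 621386322, 15.69 Mb from MND1. The part of this position near MND1 in its line difference was not tested. At W5.0 HORVU7Hr1G106960 was at 56.1, 56.7, 60.3 and 52.4 CPM in mnd1.a, against 42.2, 31.5, 38.5 and 25.2 CPM in Bowman. The groups did not overlap, and the gene was higher in mnd1.a by 0.71 ± 0.15 on the log2 scale (SE, edgeR adjusted p = 0.00167). At W3.5 it averaged 49.7 ± 5.80 CPM in mnd1.a (SD, n = 3) and 49.8 ± 9.29 CPM in Bowman (SD, n = 4). Over the span it fell in Bowman (log2 fold change -0.82 ± 0.16, SE, edgeR adjusted p = 0.000324) and gave -0.29 ± 0.16 in mnd1.a (SE, edgeR adjusted p = 0.205). The change of its line difference from W2.0 to W5.0 was 0.53 ± 0.22 and did not pass (SE, edgeR adjusted p = 0.130).

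HORVU3Hr1G088000, annotated as LSH6, was scarce. At W5.0 it was at 0.989, 1.004, 0.984 and 0.821 CPM in mnd1.a, against 0.310, 0, 0.450 and 0 CPM in Bowman, where 2 of 4 libraries held no count. It was higher in mnd1.a at W5.0 (log2 fold change 2.18 ± 0.73, SE, edgeR adjusted p = 0.0317). That call was lost in 6 of 8 fits without 1 library, those without any of the 4 mnd1.a libraries or Bowman replicate 2 or 4, and in limma-voom (adjusted p = 0.0521). It fell over the span in both lines, with log2 fold changes of -2.36 ± 0.61 in mnd1.a (SE, edgeR adjusted p = 0.0123) and -4.14 ± 0.70 in Bowman (SE, edgeR adjusted p = 0.000115).

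The remaining 4 ALOG genes gave no call between lines at any stage. HORVU1Hr1G041240, the third gene annotated as LSH3, averaged 14.6 ± 2.55 CPM (SD, n = 4) in mnd1.a, against 13.4 ± 7.81 CPM (SD, n = 4) in Bowman at W5.0, a difference of 0.11 ± 0.36 on the log2 scale (SE, edgeR adjusted p = 0.850) with a 95% interval from -0.60 to 0.82. Over the span it fell in both lines, with log2 fold changes of -2.15 ± 0.38 in mnd1.a (SE, edgeR adjusted p = 0.00162) and -1.94 ± 0.37 in Bowman (SE, edgeR adjusted p = 0.000447). HORVU1Hr1G060250 and HORVU1Hr1G070480, both annotated as LSH6, also fell over the span in both lines. Their W5.0 line differences were -0.10 ± 0.40 and -0.07 ± 0.47 (SE, edgeR adjusted p = 0.874 and 0.928). HORVU2Hr1G060890, also annotated as LSH6, had the opposite course after W3.5. Between W3.5 and W5.0 it rose in mnd1.a by 2.02 ± 0.54 on the log2 scale (SE, edgeR adjusted p = 0.0224), beside 5.12% of all genes called higher, and gave 1.24 ± 0.44 in Bowman (SE, edgeR adjusted p = 0.0819). The gene was scarce at W3.5, at 0.782, 0.398 and 0.0610 CPM in mnd1.a. The last value lay below the 0.183 CPM of 3 counts in that library, so the size of the rise is uncertain. Its W5.0 levels, 1.67 ± 0.844 CPM (SD, n = 4) in mnd1.a, against 2.02 ± 0.764 CPM (SD, n = 4) in Bowman, overlapped.

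**Figure D3:**
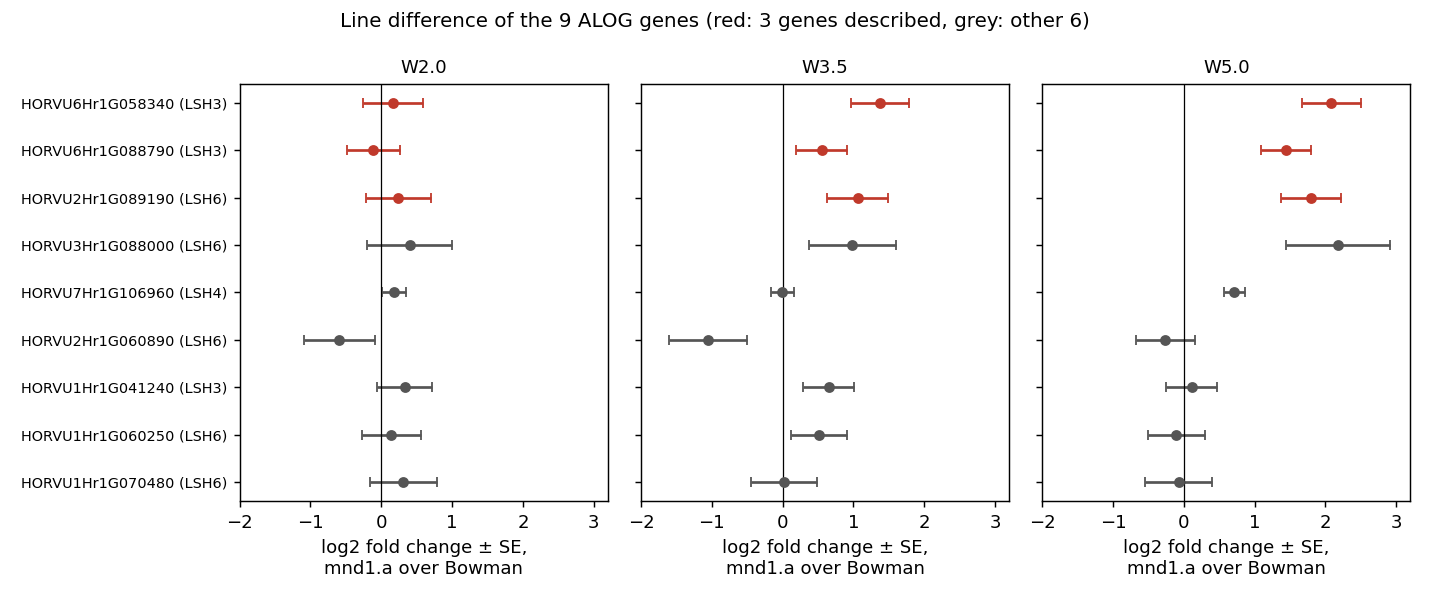
Log2 fold change of mnd1.a over Bowman (points with SE) for the 9 ALOG genes, one panel for each stage, with the 3 chosen genes in red and the other 6 in grey. At W5.0 the 3 red points lie between 1.44 and 2.08, together with HORVU3Hr1G088000 at 2.18 and HORVU7Hr1G106960 at 0.71, while the last 4 genes lie between -0.26 and 0.11.

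The chosen genes also varied together from library to library. Over the 21 libraries, which share the stage course and the scaling, Pearson's r of log2 CPM was 0.990 between HORVU6Hr1G058340 and HORVU2Hr1G089190, 0.900 between the LSH3 pair and 0.881 between HORVU6Hr1G088790 and HORVU2Hr1G089190. After the mean of each group was subtracted, r was 0.936, 0.723 and 0.661 in the same order. In the Bowman W5.0 group, HORVU6Hr1G058340 and HORVU2Hr1G089190 ranked the replicates alike, with replicate 4 lowest, then 2, 3 and 1. Bowman W3.5 replicate 4 had the lowest level of its group for all 3 genes. Varying together was not particular to the 3 genes. HORVU1Hr1G041240, which gave no call between lines, followed HORVU2Hr1G089190 within groups with r = 0.978 and HORVU6Hr1G058340 with r = 0.924. HORVU6Hr1G088790 followed HORVU7Hr1G106960 (r = 0.838) and HORVU3Hr1G088000 (r = 0.800) within groups more closely than either other chosen gene. HORVU2Hr1G060890 did not share this, with r of -0.130, -0.549 and -0.112 to HORVU6Hr1G058340, HORVU6Hr1G088790 and HORVU2Hr1G089190.

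Among all genes tested, HORVU6Hr1G058340 and HORVU2Hr1G089190 were each the gene most like the other. Next to HORVU6Hr1G058340 came HORVU2Hr1G105010, annotated with a domain of unknown function (r = 0.968), the zinc finger protein gene HORVU6Hr1G080870 (r = 0.967) and the lipid-transfer protein genes HORVU7Hr1G115830 (r = 0.962) and HORVU7Hr1G115810 (r = 0.960). Next to HORVU2Hr1G089190 came the beta-xylosidase gene HORVU6Hr1G062820 (r = 0.969), HORVU7Hr1G115810 again (r = 0.966), HORVU3Hr1G106880 (r = 0.961) and the fasciclin-like arabinogalactan protein gene HORVU1Hr1G087530 (r = 0.961). HORVU3Hr1G106880 encodes a protein with ankyrin repeats and a BTB/POZ domain, the domain structure of BLADE-ON-PETIOLE and NPR proteins. Its W2.0 mean was 59.0 CPM for mnd1.a and 54.5 CPM for Bowman, and its W5.0 mean was 41.3 CPM for mnd1.a and 26.7 CPM for Bowman. HORVU3Hr1G106880 was picked by its likeness over these same libraries, so its means follow from that choice and are no separate evidence.

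HORVU6Hr1G088790 had other companions. The 5 most like it were the dirigent-like gene HORVU7Hr1G116770 (r = 0.938), the B12D gene HORVU1Hr1G089310 (r = 0.927), the lipoxygenase gene HORVU2Hr1G115980 (r = 0.923), the laccase gene HORVU3Hr1G086160 (r = 0.921) and the ALOG gene HORVU7Hr1G106960 (r = 0.919). All but the ALOG gene were scarce in Bowman at W5.0, with means of 0.170, 0.0725, 0.0947 and 0.231 CPM in that order. These means lie at or near the level of 3 counts (0.129 to 0.253 CPM), so their r rests in part on poorly measured levels. HORVU2Hr1G089190 ranked 64 among all genes by likeness to HORVU6Hr1G088790, and HORVU6Hr1G088790 ranked 165 by likeness to HORVU6Hr1G058340. All of these correlations are over n = 21 libraries.

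Tissue composition was followed with marker genes. The summed level of 5 floral organ identity genes (MADS-box 2, 4 and 16, of petal and stamen identity, and 3 and 58, of stamen and carpel identity, named after rice genes) ranged from 3.31 to 16.2 CPM in mnd1.a and from 1.91 to 3.66 CPM in Bowman at W2.0. At W3.5 the sum ranged from 1.64 to 6.65 CPM in mnd1.a and from 8.75 to 59.6 CPM in Bowman, without overlap. At W5.0 it was 60.5 to 82.5 CPM in mnd1.a against 62.2 to 137 CPM in Bowman. None of the 5 was at 0 in every library of any group. At W3.5, 4 of 5 were lower in mnd1.a and 0 higher, beside 2.13% of all genes called lower and 1.77% higher, with a median log2 fold change of -3.27 where all genes had -0.01, and at W2.0 and W5.0 0 of 5 were called. At W2.0, mnd1.a replicate 3 stood apart with a sum of 16.2 CPM, against 3.31 and 3.588 CPM in the other libraries of its group, and the median log2 fold change was 2.53 with it and 0.74 without it. At an unadjusted edgeR p under 0.05 the counts were 2 at W2.0 and 0 at W5.0, and DESeq2 and limma-voom called 0 at both.

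The leading changes were in MADS-box 16 (HORVU7Hr1G091210, log2 fold change -3.37 ± 0.89, SE, edgeR adjusted p = 0.0442), MADS-box 3 (HORVU3Hr1G026650, -3.30 ± 0.86, adjusted p = 0.0399) and MADS-box 4 (HORVU1Hr1G063620, -3.27 ± 0.77, adjusted p = 0.0270). Of the 5, 0 were called with the W3.5 groups fitted alone, in limma-voom, without mnd1.a replicate 2 or without Bowman replicates 2 and 4 together, and 1 was called without mnd1.a replicate 1 or Bowman replicate 2 or 4. Over the 21 libraries the log2 level correlated with the log2 floral sum at r = -0.818 for HORVU6Hr1G058340, -0.610 for HORVU6Hr1G088790 and -0.815 for HORVU2Hr1G089190, values that also span the course of the stages. After group means were subtracted, r was -0.616, -0.210 and -0.581 in the same order. The library with the highest floral sum of its group was also the lowest for HORVU6Hr1G058340 and HORVU2Hr1G089190 in 4 of 6 groups, and for HORVU6Hr1G088790 in 3 of 6. It was the lowest for all 3 genes in Bowman at W3.5 and W5.0, while at W3.5 in mnd1.a it was the highest for HORVU6Hr1G088790. The part of floral stage in the ALOG difference was not tested.

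**Figure D4:**
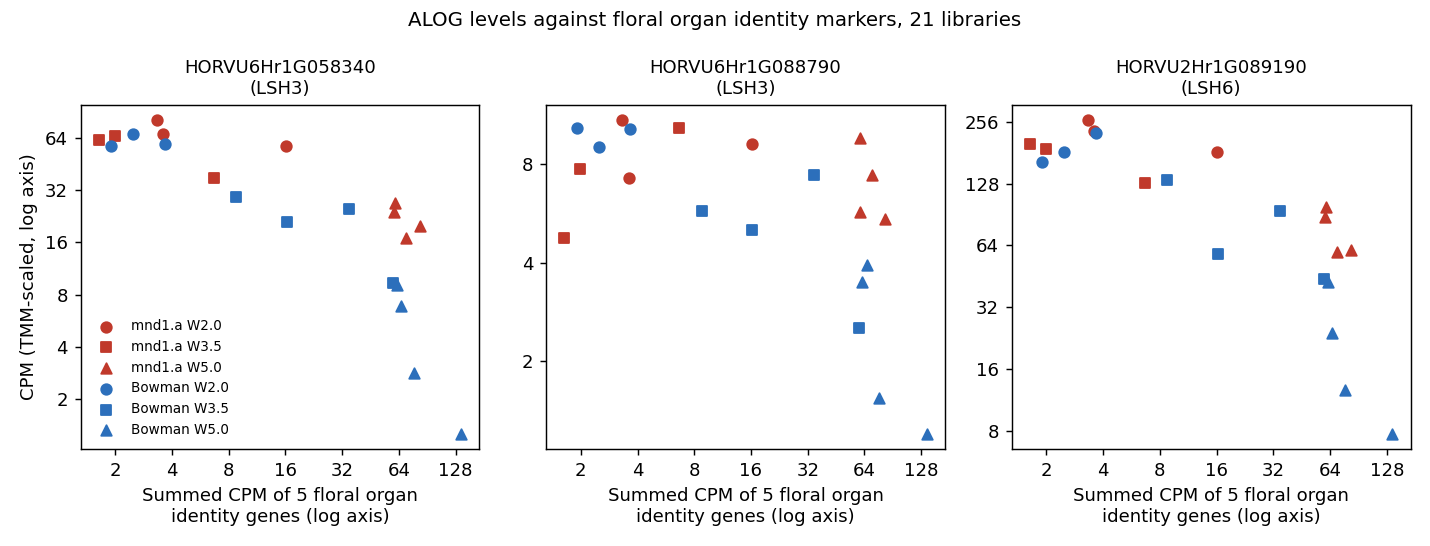
Level of each of the 3 ALOG transcripts (vertical, TMM-scaled CPM, log axis) against the summed CPM of 5 floral organ identity genes (horizontal, log axis) in the 21 libraries, red for mnd1.a and blue for Bowman, with a marker shape for each stage. The mnd1.a W5.0 libraries, at sums of 60.5 to 82.5 CPM, lie above the Bowman W5.0 libraries, at 62.2 to 137 CPM, and the W2.0 libraries of both lines overlap.

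Green tissue was followed with 90 leaf marker genes of the photosystems, chlorophyll a-b binding proteins, plastocyanin and the small subunit of ribulose bisphosphate carboxylase, 77 of which were tested. Their summed level ranged from 874 to 1543 CPM in mnd1.a and from 295 to 511 CPM in Bowman at W2.0. At W3.5 it ranged from 1273 to 1939 CPM in mnd1.a and from 1430 to 1957 CPM in Bowman, and at W5.0 from 1273 to 1940 CPM in mnd1.a and from 1425 to 2182 CPM in Bowman. At W2.0, 1 of the 90 (HORVU2Hr1G010630) was at 0 in every mnd1.a library and another (HORVU6Hr1G091650) in every Bowman library. Higher in mnd1.a were 32 of 77 at the first stage, 0 at the second and 10 at the third, and lower were 0, 0 and 9, with median log2 fold changes of 1.34, -0.06 and -0.25. Of all genes, 0.497% were called higher at W2.0, and at W5.0 15.0% were called higher and 15.2% lower, so that the W5.0 counts of 10 and 9 of 77 lie near or below those shares. The 77 are not all separate measurements, since 15 of them, in 4 sets of up to 9 genes, share their rounded counts with another marker. Over the 66 distinct ones, 29, 0 and 10 were higher and 0, 0 and 8 lower in order of stage, with medians of 1.47, -0.02 and -0.18. The leading W2.0 members were 3 chlorophyll a-b binding protein genes, HORVU1Hr1G078380 (log2 fold change 5.07 ± 1.02, SE, edgeR adjusted p = 0.0191), HORVU5Hr1G109360 (2.46 ± 0.43, adjusted p = 0.00566) and HORVU5Hr1G082420 (2.36 ± 0.40, adjusted p = 0.00575). HORVU1Hr1G078380 was scarce, with a W2.0 mean of 0.0711 CPM for Bowman beside 2.54 CPM for mnd1.a. That Bowman mean lay below the level of 3 counts (0.129 to 0.253 CPM), so the size of this change is uncertain. Bowman means were higher for HORVU5Hr1G109360 (1.25 CPM) and HORVU5Hr1G082420 (8.54 CPM). The leading W5.0 members encode chloroplast photosystem proteins, D1 for HORVU2Hr1G062060 (log2 fold change 2.83 ± 0.89, SE, edgeR adjusted p = 0.0223) and HORVU2Hr1G121820 (2.73 ± 0.56, adjusted p = 0.00162), and a photosystem I apoprotein for HORVU6Hr1G049190 (2.72 ± 0.31, adjusted p = 6.19e-06). HORVU2Hr1G062060 was scarce as well, with a W5.0 mean of 0.0760 CPM for Bowman beside 0.630 CPM for mnd1.a. This Bowman mean was also below the level of 3 counts, so the size of that change is uncertain too. Bowman means were higher for HORVU2Hr1G121820 (0.742 CPM) and HORVU6Hr1G049190 (1.15 CPM). The W2.0 count was 13 with these groups fitted alone, and 15, 20 and 16 without mnd1.a replicate 3, Bowman replicate 2 and Bowman replicate 3. At W3.5, 4 of 77 had an unadjusted p under 0.05, DESeq2 and limma-voom called 0, and 1 was called without Bowman replicate 1. Over the 21 libraries the log2 leaf sum correlated with the log2 level at r = -0.469 for HORVU6Hr1G058340, -0.397 for HORVU6Hr1G088790 and -0.483 for HORVU2Hr1G089190. After group means were subtracted these values were 0.17, 0.44 and -0.0059. The part of leaf content in the ALOG difference was not tested.

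Genes of families with members that act with ALOG proteins elsewhere, or in meristems and at boundaries, were counted in lists taken by annotation. Of the SVP-type MADS-box genes, which act downstream of TAWAWA1 in rice, 0 of 3 were called at any stage, with median log2 fold changes of 0.14, 0.48 and 0.43 in order of stage. MADS-box 55 (HORVU7Hr1G036130) came closest at W5.0, at 70.2 ± 10.6 CPM (SD, n = 4) in mnd1.a, against 39.2 ± 21.5 CPM (SD, n = 4) in Bowman, a difference of 0.83 ± 0.32 on the log2 scale (SE, edgeR adjusted p = 0.0591). At an unadjusted edgeR p under 0.05 the counts were 0, 0 and 1. DESeq2 and limma-voom each called 0, 0 and 1, and edgeR called 2 at W5.0 without Bowman W5.0 replicate 3 and 1 without replicate 1. No gene was annotated as BLADE-ON-PETIOLE, so no count is given for those proteins by name. HORVU3Hr1G106880, described above, was not in the list of that family. Of the genes annotated as NPR1, of the family that includes the BLADE-ON-PETIOLE proteins, 0 of 3 were called at any stage, also in DESeq2 and limma-voom. Their medians were -0.11, -0.07 and -0.01, 0, 2 and 0 had an unadjusted edgeR p under 0.05, and 1 was called at W3.5 without mnd1.a replicate 3 or Bowman replicate 1.

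Among the floral MADS-box partners, a list that includes genes of the SEPALLATA and APETALA1 groups, 0 of 11 tested members were higher at any stage. In order of stage, 0, 5 and 2 were lower in mnd1.a. Beside these counts, 0.293%, 2.13% and 15.2% of all genes were called lower, so that the W5.0 count lies near the share of all genes. The medians were 1.07, -3.46 and -0.14. At W2.0, 4 had an unadjusted edgeR p under 0.05, DESeq2 called 3 and limma-voom 0. All 11 members were highest in mnd1.a replicate 3 among the mnd1.a libraries of that stage. Without that library the W2.0 median was 0.23, 1 of 12 then tested had an unadjusted edgeR p under 0.05 and 0 were called. MADS-box 34 (HORVU5Hr1G095710) was at 0.872 ± 0.558 CPM (SD, n = 3) in mnd1.a at W3.5, where Bowman was at 27.8 ± 15.4 CPM (SD, n = 4), a difference of -4.93 ± 0.74 on the log2 scale (SE, edgeR adjusted p = 0.00105), and was lower again at W5.0 (-2.26 ± 0.51, adjusted p = 0.00381). MADS-box 5 (HORVU7Hr1G025700) differed by -4.79 ± 0.95 at W3.5 (SE, edgeR adjusted p = 0.0101). MADS-box 6 (HORVU6Hr1G066140) was lower too (edgeR adjusted p = 0.0244), with 0 rounded counts in all 3 mnd1.a libraries and 7.71 ± 6.68 CPM in Bowman (SD, n = 4). MADS-box 14 (HORVU5Hr1G095630) was lower at W5.0 as well (log2 fold change -0.80 ± 0.16, SE, edgeR adjusted p = 0.00144). The W3.5 count was 8 in DESeq2 and 3 in limma-voom, 1 with the W3.5 groups fitted alone, and 1 without Bowman replicates 2 and 4, the libraries with the highest floral sums. It was 2 without mnd1.a replicate 1 or 2, and 8 without mnd1.a replicate 3 or Bowman replicate 1. At W5.0 DESeq2 called 3, limma-voom 4 and the fit of the W5.0 groups alone 5.

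KNOX and BELL homeobox genes, families of which only some members keep meristems undifferentiated, gave 0 calls of 18 first, 1 lower at W3.5, and 3 higher and 1 lower at W5.0. The medians were 0.13, -0.06 and -0.08. Of all genes, 2.13% were called lower at W3.5, and at W5.0 15.0% were called higher and 15.2% lower, so that 3 and 1 of 18 do not stand apart from the table as a whole. At W2.0, 4 had an unadjusted edgeR p under 0.05, and DESeq2 and limma-voom called 0. The W3.5 call was BEL1-like homeodomain 8 (HORVU3Hr1G085720, log2 fold change -0.73 ± 0.18, SE, edgeR adjusted p = 0.0292). At W5.0 the leading members were knotted-1-like 4 (HORVU4Hr1G003360, log2 fold change 2.08 ± 0.69, SE, edgeR adjusted p = 0.0301), BEL1-like homeodomain 1 (HORVU4Hr1G020710, -1.36 ± 0.48, adjusted p = 0.0386) and BEL1-like homeodomain 6 (HORVU5Hr1G001090, 0.69 ± 0.23, adjusted p = 0.0312). Knotted-1-like 4 was at 5.97 ± 1.70 CPM (SD, n = 4) in mnd1.a, against 1.36 ± 1.25 CPM (SD, n = 4) in Bowman. Leaving out 1 library gave 0 to 2 calls at W3.5 and 1 or 2 at W5.0.

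In the boundary list 10 of 17 genes were tested, all of the LOB family. It gave 1 lower member at each stage and 1 higher at W5.0, with medians of -0.23, 0.03 and -0.13. Of all genes, 0.293%, 2.13% and 15.2% were called lower in order of stage and 15.0% higher at W5.0, so the W5.0 counts lie near the share of all genes. The lower member was LOB domain-containing protein 37 (HORVU2Hr1G035160) each time. At W5.0 it was at 8.16 ± 1.03 CPM (SD, n = 4) in mnd1.a, against 17.3 ± 3.591 CPM (SD, n = 4) in Bowman, and from stage to stage the lines differed by -1.34, -1.17 and -1.09 on the log2 scale (edgeR adjusted p = 0.000492, 0.000543 and 0.000101). Its namesake in Arabidopsis is known from nitrogen responses rather than from boundaries. The higher member was LOB domain-containing protein 6 (HORVU3Hr1G090240, log2 fold change 0.51 ± 0.18, SE, edgeR adjusted p = 0.0338), whose namesake in Arabidopsis shapes the leaf. Its call was lost without any 1 of 6 of the 8 W5.0 libraries, all but mnd1.a replicate 2 and Bowman replicate 3. At W3.5, 3 boundary genes were called in DESeq2 and without mnd1.a replicate 3.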

How the data were processed

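RNA-seq was analysed from 21 libraries in 6 groups, and 1 further sample (Mesa) was not analysed here. The authors deposited 1 table of estimated counts per gene, headed raw counts per the file headers, whose gene annotation comes from Mascher and colleagues, as its header says. The same table holds the authors' log2 fold changes between mnd1.a and Bowman, per the file headers, which were copied and not recomputed. Salmon, BWA 0.7.15, limma and GATK are named in the submitters' processing notes without a role. No genome build was stated: not given in the sources used here. Of 42 per-sample columns, 21 were not used here because they are headed as log2 CPM. The middle stage is headed W3.0 over the counts and was taken as W3.5, which the labels give. The columns give the group and a replicate number but cannot be tied to single samples, so a replicate is a column of its group.

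Estimated counts (94.9% of values not whole) were rounded. Genes were kept by filterByExpr (minimum count 10, minimum total count 15), which left 21132 and removed 3186. TMM factors lay between 0.902 and 1.08. One fit over the 6 groups gave 12 comparisons with edgeR 4.0.16 (R 4.3.3) quasi-likelihood tests and Benjamini-Hochberg adjustment over all genes tested, threshold 0.05. Standard errors were derived from the F statistic. The W5.0 over W2.0 comparisons were added after the data were seen. Log2 CPM used a prior count of 0.25. The scripts were tested on simulated data. Alternatives were RLE scaling, library totals, no filter, DESeq2 1.42.0, limma-voom 3.58.1, only the groups compared, and each library left out. The column replicate number as a block, and a fit without Bowman W3.5 replicates 2 and 4, were not planned and were added later. In 27 replicate pairs the lowest chi-square per degree of freedom was 2.99, so no pair agreed within sampling noise.

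The 3 genes and all gene lists were chosen with earlier results of these data known. No p-value is therefore given for the 3 genes, between lines or between stages. Genes named are the 3 genes, the other ALOG genes, MND1, up to 3 called members of each list per stage with the largest absolute log2 fold change, and the 5 genes with the highest r to each of the 3. MADS-box 55 and the leaf markers HORVU5Hr1G033540 and HORVU5Hr1G054000 were named after their values were seen. An AFG1-like ATPase was left out of the ALOG list, plastocyanin-like and assembly proteins out of the leaf markers, and an AGAMOUS-like gene out of the floral identity list.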

Additional observations from a re-analysis of the deposited data

Results flagged for a closer look

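HORVU3Hr1G088000, an ALOG gene annotated as LSH6, had 1 library that stood apart from the others in the mnd1.a W5.0 group. Replicate 4 was at 0.821 CPM, below the other libraries at 0.984 to 1.004 CPM, and its gap to the nearest of them was 0.892 of the range of the group. In estimated counts replicate 4 held 9.57 and replicates 1, 2 and 3 held 11.98, 13.18 and 13.22. The gap to the nearest was thus below 3 counts, which is within counting error. Over 9 ALOG genes 27 groups of 4 libraries were examined in this way, and chance flags about 1 in 20.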

How the results depend on the processing

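For the 3 chosen genes, each line difference and each change between stages stayed within the spread between libraries of its main value under every alternative run, except 1 value under a replicate block given below. Signs held except for HORVU6Hr1G088790, whose difference was small in 2 cases. Its W2.0 line difference turned to 0.028 without mnd1.a replicate 2, and its change in mnd1.a from W3.5 to W5.0 lay between -0.36 and 0.18 with a library left out.

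The column headings number the libraries from 1 in every group, while the sample labels do not. Over 9 comparisons, 29 pairs of libraries with the same number had deviations from their group means that correlated across genes at r = -0.167 to 0.434. Of these, 5 were over 0.1, and in 0 of 9 comparisons were all pairs over it, so the numbers were not taken as pairing the libraries. The comparison closest to it was Bowman from W3.5 to W5.0, with r = 0.0974 to 0.434 and 3 of 4 pairs over 0.1. There 3 of 4 W3.5 libraries correlated best with the W5.0 library of their own number. A replicate block, added after seeing the data, gave -1.36 for HORVU6Hr1G058340 in mnd1.a over the span, where the main value was -1.64, and 0.12 for HORVU6Hr1G088790 in mnd1.a from W3.5 to W5.0. It called 2 boundary genes at W3.5 and 2 SVP-type genes at W5.0, and kept each count of genes called within 1.5 times (172, 1044 and 6844 between lines in order of stage, and 2368 for that Bowman step, where it was 1604 without the block).

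The number of genes called moved more under other settings, and the cause was not tested. It was 167 at W2.0 between lines (325 in DESeq2, 89 to 130 with a library left out) and 826 at W3.5 (1487 in DESeq2, 94 with these groups alone, 344 without Bowman replicates 2 and 4). At W3.5 it was 265 without mnd1.a replicate 2 and 2273 without Bowman replicate 1, and at W5.0 it was 6381 (4570 to 6919 with a library left out). Between stages in mnd1.a it was 799 for the first step (1308 in DESeq2, 1535 alone, 266 to 632 with a library left out), 2140 for the second (3689 alone, 796 to 2741) and 4034 for the span (7747 alone, 2006 to 3219). In Bowman it was 6210 for the first step (2370 alone, 3641 without replicates 2 and 4, 4042 to 7179 with a library left out) and 10978 for the span (9310 to 11151). For the second Bowman step it was 1604 (2572 in DESeq2, 0 alone, 4018 without replicates 2 and 4), 29 without W5.0 replicate 2 and 3523 without W3.5 replicate 4.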
